A study of Mus musculus with 5 samples.

Results

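Fc receptors for IgG bind the constant part of antibodies and tie antibody recognition to the behaviour of the cell. The group described here is the 6 genes Fcgr1 (ENSMUSG00000015947.10), Fcgr3 (ENSMUSG00000059498.13), Fcgr4 (ENSMUSG00000059089.4), Fcer1g (ENSMUSG00000058715.11), Fcgr2b (ENSMUSG00000026656.15) and Fcgrt (ENSMUSG00000003420.7), taken by symbol from the 46983 genes of the count table, where each was found once. All 6 passed the filter on low counts that left 16436 genes to test. RNA sequencing was done on mouse Kupffer cells, the resident macrophages of the liver, from 2 libraries of ID3-/- cells (knockout, replicates 2 and 3) and 3 libraries of ID3+/- cells (heterozygous, replicates 1, 2 and 3), with no treatment named and no cells with 2 intact copies of the gene among the samples used here. Id3 encodes an inhibitor of DNA binding that holds E proteins off their sites, and the comparison asks which transcripts differ once the remaining copy is lost. All 5 count columns are tagged 3w, with no meaning given for the tag. The labels do not state the sex or age of the mice, how the cells were purified or whether each library is a separate animal, so the p-values describe the spread between these libraries, which may be technical.

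Activating receptors (Fcgr1, Fcgr3 and Fcgr4) carry a ligand-binding chain and signal through a shared gamma chain, the product of Fcer1g, whose tyrosine motif is phosphorylated by Src-family kinases and recruits Syk. Fcgr2b is the inhibitory receptor: its tyrosine motif recruits the phosphatase SHIP-1 (Inpp5d) and dampens the activating receptors engaged by the same immune complex. Fcgrt encodes the heavy chain of FcRn, which pairs with beta-2-microglobulin (B2m) and returns endocytosed IgG and albumin to the circulation. In the liver, Kupffer cells take up IgG-coated particles, and sinusoidal endothelial cells are known for a high level of Fcgr2b.

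Promoter windows of 250 bases before to 50 bases after the gene start (RefSeq, GRCm38.p6) were found for all 6 members. They are shown for the 3 activating receptors, which share a word, and for Fcer1g, whose transcript was higher in the knockout cells. The transcript of Fcgrt was higher too, but its window held 0 matches to the motifs searched and is not shown. Capitals mark 3 motifs searched on both strands. The E-box, bound by E proteins, is spelled CANNTG. The gamma-activated sequence, known from interferon-responsive promoters, is spelled TTCNNNGAA. A core bound by the myeloid factor PU.1 is spelled GAGGAA and reads TTCCTC on the other strand. No 2 of these matches overlap in the windows shown. By RefSeq, Fcgr3, Fcgr4, Fcer1g and Fcgr2b lie on chromosome 1, Fcgr1 on chromosome 3 and Fcgrt on chromosome 7.
Fcgr1, chr3:96293920-96294219, minus strand: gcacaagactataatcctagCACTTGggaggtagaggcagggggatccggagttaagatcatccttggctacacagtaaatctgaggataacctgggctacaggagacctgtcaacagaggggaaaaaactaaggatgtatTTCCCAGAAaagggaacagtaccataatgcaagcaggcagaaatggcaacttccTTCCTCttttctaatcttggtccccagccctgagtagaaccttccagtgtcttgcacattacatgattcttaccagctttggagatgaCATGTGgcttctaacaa
Fcgr3, chr1:171059345-171059644, minus strand: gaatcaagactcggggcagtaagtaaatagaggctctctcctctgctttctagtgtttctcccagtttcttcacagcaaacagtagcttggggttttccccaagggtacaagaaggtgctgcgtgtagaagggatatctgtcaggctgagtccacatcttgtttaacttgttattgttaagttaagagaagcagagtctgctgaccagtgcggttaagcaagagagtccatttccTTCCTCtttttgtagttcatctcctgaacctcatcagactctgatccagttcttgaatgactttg
Fcgr4, chr1:171018676-171018975, plus strand: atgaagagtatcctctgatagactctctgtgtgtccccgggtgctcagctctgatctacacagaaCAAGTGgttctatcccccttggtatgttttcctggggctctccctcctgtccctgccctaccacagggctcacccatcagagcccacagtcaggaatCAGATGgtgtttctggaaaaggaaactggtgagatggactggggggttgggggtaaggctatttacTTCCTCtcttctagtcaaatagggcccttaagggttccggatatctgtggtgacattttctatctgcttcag
Fcer1g, chr1:171234300-171234599, minus strand: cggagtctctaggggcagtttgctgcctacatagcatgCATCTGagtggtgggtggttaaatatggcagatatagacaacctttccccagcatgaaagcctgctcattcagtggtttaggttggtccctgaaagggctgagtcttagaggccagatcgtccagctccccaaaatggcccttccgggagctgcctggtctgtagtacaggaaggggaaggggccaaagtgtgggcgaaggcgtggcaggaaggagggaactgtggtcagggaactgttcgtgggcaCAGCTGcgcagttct

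The word TTCCTC stood close to the start of each activating receptor gene, beginning 55 bases upstream in Fcgr1, 15 in Fcgr3 (6 in the other RefSeq window of this gene) and 22 in Fcgr4. The windows of Fcer1g, Fcgr2b and Fcgrt did not hold it, and 28.3% of all 32851 promoter windows of this length did. A gamma-activated sequence, TTCCCAGAA, began 109 bases upstream of Fcgr1 and in no other member, against 8.3% of all windows. The windows of Fcgr1, Fcgr4 and Fcer1g held 2 E-boxes each, that of Fcgr2b held 1, and none was found in those of Fcgr3 and Fcgrt, while 72.3% of all windows held 1 or more. These matches are letters in a window and were not measured as bound sites.

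Fcgr3 and Fcgr2b share stretches of coding sequence, which bears on what could be counted for each. The longest identical run is 129 bases, shown because a read that falls within it cannot be placed on either gene alone. It covers bases 313 to 441 of the Fcgr3 transcript (coding bases 51 to 851, GENCODE M21) and bases 402 to 530 of the Fcgr2b transcript, in the part that encodes extracellular immunoglobulin-like domains.
Fcgr3 and Fcgr2b, shared run: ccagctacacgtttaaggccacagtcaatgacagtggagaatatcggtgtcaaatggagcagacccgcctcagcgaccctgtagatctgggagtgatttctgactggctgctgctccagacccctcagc
Of the 1298 windows of 50 bases in the Fcgr3 transcript, 166 (12.8%) also occur in Fcgr2b. In Fcgr2b, 12.5% of all windows occur in transcripts of other genes (4.75% of all windows occur in Fcgr3), and 4.07% of its exon bases overlap the gene model Gm38204. Transcripts of Fcgr1, Fcgr4, Fcer1g and Fcgrt had 0 windows in common with another gene. Entries for reads aligned more than once were 31.3% and 32.8% of the total in the knockout libraries and 36.2% to 39.4% in the heterozygous ones. Their part in the values of Fcgr3 and Fcgr2b was not tested.

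The libraries held 74823374 to 80944135 counts assigned to genes. Id3 was at 1.01 and 1.42 CPM (counts scaled to the TMM-adjusted library size) in the knockout libraries, against 229, 221 and 256 CPM in the heterozygous ones, so each library matched its label. Summed counts of 10 Kupffer cell markers, among them the lectin Clec4f and Cd5l, were 60932 and 56629 CPM in the knockout and 54203 to 55617 CPM in the heterozygous libraries, with none of the markers at 0. Of all genes tested, 16.4% passed an adjusted p of 0.05 (edgeR quasi-likelihood test), 6.41% higher and 10.0% lower in the knockout cells (1054 and 1644 genes, against 1443 and 1499 under upper-quartile scaling). The median log2 fold change over all genes was -0.02. Of the 10 Kupffer cell markers, 1 was higher (Marco, log2 fold change 1.06, edgeR adjusted p = 0.00768), 0 were lower and 9 did not pass. Among those 9, Cd5l (0.33), Slc40a1 (0.29), C1qa (0.29) and Csf1r (0.17) stood on the higher side. Clec4f (-0.20), Vsig4 (-0.25), Timd4 (-0.25) and Adgre1 (-0.31) stood on the lower side, so the sum joins markers of both directions.

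Loss of Id3 went with more RNA of the shared gamma chain and of the neonatal receptor, while the ligand-binding receptors did not pass the test. Of the 6 members, 2 were higher (Fcer1g by 1.38-fold and Fcgrt by 1.46-fold), 0 were lower and 4 did not pass, where 6.41% of all genes were higher. The genotypes did not overlap in 3 members, Fcer1g and Fcgrt on the higher and Fcgr3 on the lower side. Over all genes tested they did not overlap in 51.5%, with 24.6% on the higher and 26.9% on the lower side, so such a split is common here. Neither call was kept in a fit with offsets for transcript length and GC content. In bulk RNA, a change in the share of cells that make a transcript and a change in its level per cell cannot be told apart.

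**Figure D1:**
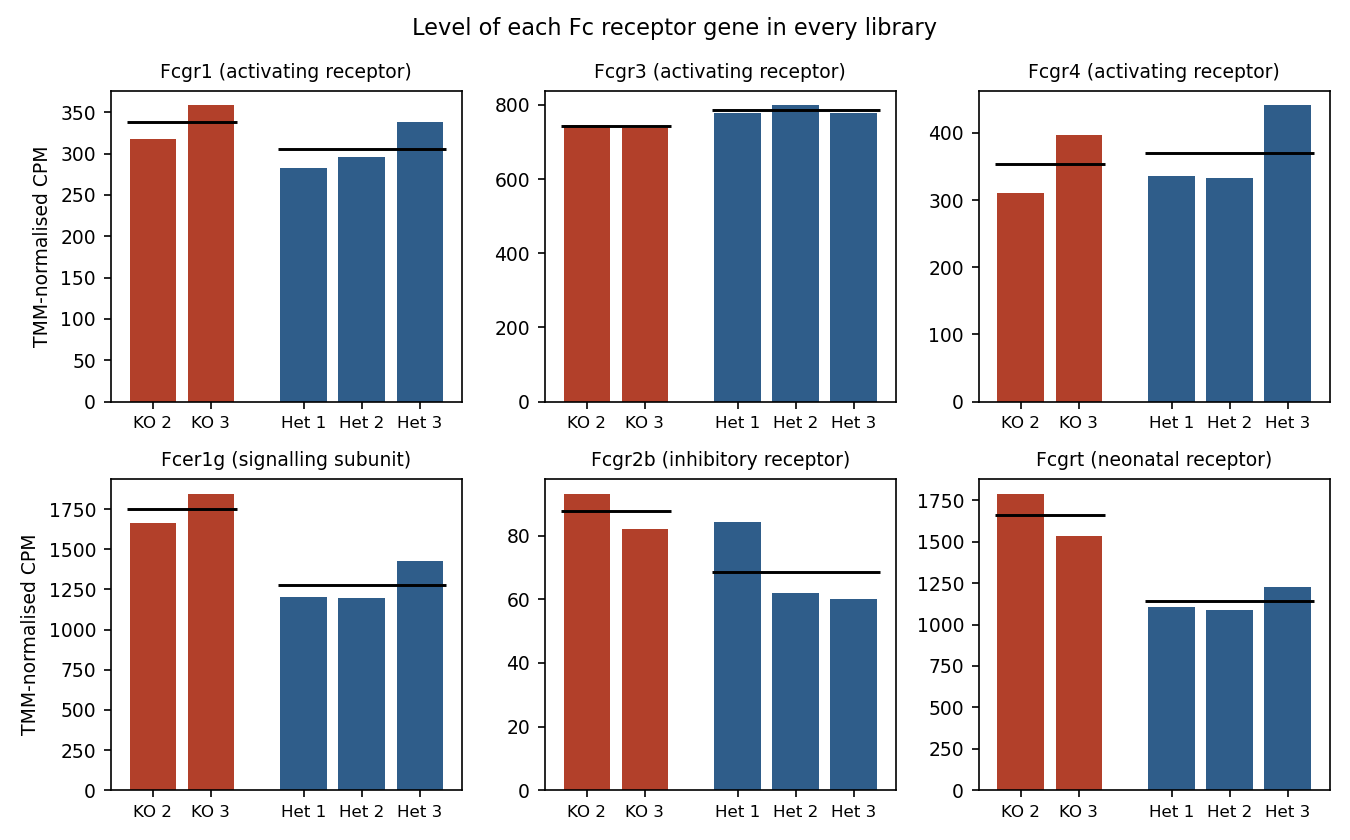
TMM-normalised CPM of the 6 Fc receptor genes, 1 bar per library, with knockout (KO) libraries in red and heterozygous (Het) libraries in blue; black lines are group means (n = 2 and 3). Both knockout bars of Fcer1g and Fcgrt stand above all 3 heterozygous bars, while the bars of Fcgr1, Fcgr4 and Fcgr2b overlap between the genotypes.

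Fcgr1 encodes the high-affinity receptor, which binds monomeric IgG. It was at 318 and 358 CPM in the knockout libraries, against 283, 296 and 338 CPM in the heterozygous ones. The groups overlapped, since heterozygous replicate 3 lay between the knockout libraries. The log2 fold change was 0.15 ± 0.11 (SE, edgeR adjusted p = 0.416, 95% interval -0.12 to 0.42), so these libraries leave room for a fold between 0.918 and 1.33.

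Fcgr3 encodes a low-affinity receptor for immune complexes and had the highest level of the ligand-binding receptors. It was at 747 and 738 CPM in the knockout libraries, against 778, 799 and 778 CPM in the heterozygous ones. Both knockout libraries lay below all heterozygous ones, by a margin small beside the level. The log2 fold change of -0.08 ± 0.07 did not pass (SE, edgeR adjusted p = 0.51, 95% interval -0.26 to 0.10).

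Fcgr4 encodes a receptor of intermediate affinity, known from macrophages, neutrophils and the patrolling subset of monocytes. It was at 309.9 and 396 CPM in the knockout libraries, against 336, 332.5 and 441 CPM in the heterozygous ones. Replicate 3 was the highest library of each genotype, and the groups overlapped. The log2 fold change of -0.07 ± 0.17 had the widest interval of the activating receptors, from -0.48 to 0.34 (SE, edgeR adjusted p = 0.834), and its sign turned to 0.10 without knockout replicate 2 and to 0.08 without heterozygous replicate 3. With length and GC offsets, Fcgr1 stood at 0.04, Fcgr3 at -0.22 and Fcgr4 at -0.16, and none of these 3 passed (edgeR adjusted p = 0.865, 0.0987 and 0.547).

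Fcer1g, the signalling chain that all 3 activating receptors need at the cell surface, was at 1662 and 1846 CPM in the knockout libraries, against 1200.4, 1197 and 1428 CPM in the heterozygous ones. The lower knockout library stood above the highest heterozygous library. The log2 fold change was 0.46 ± 0.11 (SE, edgeR adjusted p = 0.039, 95% interval 0.19 to 0.73). The transcript is short, 683 bases, with 6.39% of the genes tested shorter. With offsets for transcript length and GC content in the fit, the log2 fold change was 0.03 and did not pass (edgeR adjusted p = 0.85). The call was also lost without heterozygous replicate 1 (0.42, edgeR adjusted p = 0.146), heterozygous replicate 2 (0.42, edgeR adjusted p = 0.135), knockout replicate 2 (0.53, edgeR adjusted p = 0.0737) or knockout replicate 3 (0.39, edgeR adjusted p = 0.102).

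Fcgr2b, the inhibitory receptor, had the lowest level of the group, at 93.1 and 82.2 CPM in the knockout libraries, against 84.2, 62.0 and 60.0 CPM in the heterozygous ones. Heterozygous replicate 1 lay within the knockout range, and the other heterozygous libraries lay below it. The log2 fold change of 0.35 ± 0.17 did not pass (SE, edgeR adjusted p = 0.207, 95% interval -0.06 to 0.76). It was 0.64 with length and GC offsets and 0.52 without heterozygous replicate 1, and passed in neither fit (edgeR adjusted p = 0.0642 and 0.0805). Summed levels of 8 sinusoidal endothelial markers, led by Stab2 and Cdh5, were 936 and 914 CPM in the knockout and 984 to 1210 CPM in the heterozygous libraries, with none at 0. Of these 8 markers, 4 were lower and 0 higher, where 10.0% of all genes were lower. Stab2, the most abundant marker, stood at a log2 fold change of 0.01. The part of endothelial cells in the Fcgr2b value was not tested.

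Fcgrt, the heavy chain of FcRn, had the smallest p of the members. It was at 1789 and 1534 CPM in the knockout libraries, against 1107, 1090.2 and 1226 CPM in the heterozygous ones. Both knockout libraries stood above all heterozygous ones. The log2 fold change was 0.54 ± 0.10 (SE, edgeR adjusted p = 0.0226, 95% interval 0.29 to 0.79). The transcript is GC-rich, at 55.9% with 81.0% of the genes tested lower, and with length and GC offsets the log2 fold change was 0.23 (edgeR adjusted p = 0.108). The call was lost without heterozygous replicate 1 (0.52, edgeR adjusted p = 0.0938), heterozygous replicate 2 (0.52, edgeR adjusted p = 0.0946) or knockout replicate 2 (0.42, edgeR adjusted p = 0.0746). Hepatocytes also make Fcgrt, and the summed level of 8 hepatocyte markers, led by Alb, was 2558 and 6853 CPM in the knockout and 12225 to 15682 CPM in the heterozygous libraries. Of these 8 markers, 5 were lower, 0 were higher and 3 did not pass, where 10.0% of all genes were lower. Those that did not pass were Ttr (log2 fold change -0.10), Apoa1 (-0.86) and Serpina1a (-0.95). The part of hepatocytes in the Fcgrt value was not tested.

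**Figure D2:**
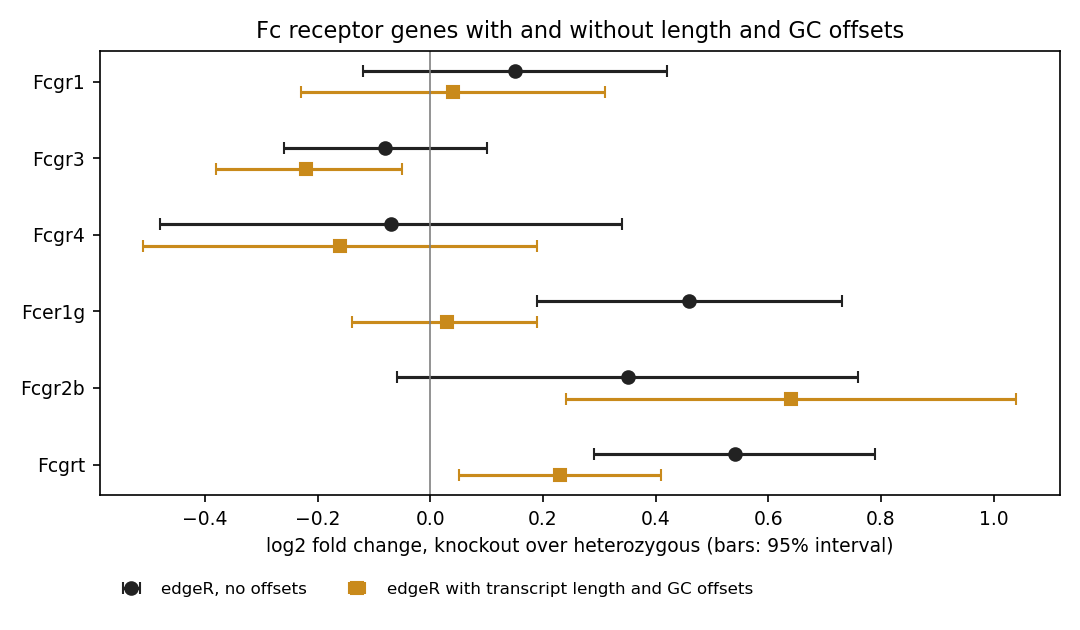
Log2 fold change of each member, knockout over heterozygous, with its 95% interval, in the edgeR fit without offsets (black circles) and with offsets for transcript length and GC content (ochre squares). Fcer1g stands at 0.46 without and 0.03 with the offsets, Fcgrt at 0.54 and 0.23, and Fcgr2b at 0.35 and 0.64.

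Divided by full transcript length, levels are roughly comparable between genes. On this scale the members kept the same order in each of the 5 libraries, from Fcer1g through Fcgrt, Fcgr3, Fcgr4 and Fcgr1 to Fcgr2b. The gamma chain averaged 2568 ± 190.0 CPM per kilobase in knockout and 1867 ± 194 CPM per kilobase in heterozygous libraries (SD, n = 2 and 3). Fcgrt averaged 939 ± 102 CPM per kilobase in knockout and 645 ± 42.0 CPM per kilobase in heterozygous libraries. Fcgr3 averaged 551 ± 4.56 CPM per kilobase in knockout and 583 ± 8.74 CPM per kilobase in heterozygous libraries, so Fcgrt and Fcgr3 were the closest neighbours of this order in the heterozygous cells. Their ranges did not overlap there, at 616 to 693 CPM per kilobase for Fcgrt and 578 to 593 CPM per kilobase for Fcgr3. The lengths include stretches shared with other genes, 12.8% of the windows in Fcgr3 and 0 in Fcgrt. Reads lost in such stretches would lower Fcgr3, and whether the order of Fcgrt and Fcgr3 would hold without them was not tested. Fcgr4 averaged 281 ± 48.7 CPM per kilobase in knockout and 294 ± 49.1 CPM per kilobase in heterozygous libraries, and Fcgr1 averaged 131 ± 11.0 CPM per kilobase in knockout and 118 ± 11.0 CPM per kilobase in heterozygous libraries. Fcgr2b averaged 24.7 ± 2.18 CPM per kilobase in knockout and 19.4 ± 3.78 CPM per kilobase in heterozygous libraries.

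Among the 4 ligand-binding receptors, Fcgr3 made up the largest share of the length-corrected counts in each library. Its share was 58.3% and 53.4% in knockout libraries, against 59.1%, 59.9% and 53.7% in heterozygous ones. Fcgr2b made up 2.77% and 2.26% in knockout libraries, against 2.43%, 1.77% and 1.57% in heterozygous ones. The inhibitory transcript was thus a small part of this pool in both genotypes, with overlapping shares.

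The balance of activating to inhibitory receptors is known to set the threshold for the response to immune complexes, and a ratio within a library needs no scaling between libraries. Summed Fcgr1, Fcgr3 and Fcgr4 over Fcgr2b, in counts per kilobase, came to 35.2 and 43.2 in knockout libraries, against 40.2, 55.5 and 62.6 in heterozygous ones. Heterozygous replicate 1 lay between the knockout libraries, so the groups overlapped. The mean log2 difference was -0.41 (exact two-sided permutation test over libraries, p = 0.3, where 2 against 3 libraries allow no p below 0.1). Taken alone over Fcgr2b, Fcgr3 gave a log2 difference of -0.45 without overlap (21.1 and 23.6 in knockout, against 24.3, 33.9 and 34.1 in heterozygous libraries, exact p = 0.2), Fcgr4 one of -0.43 (exact p = 0.4) and Fcgr1 one of -0.22 (exact p = 0.5). These ratios set Fcgr2b, a transcript of 3544 bases, against shorter ones. Length and GC offsets moved the log2 fold change of Fcgr2b from 0.35 to 0.64 and that of Fcgr3 from -0.08 to -0.22. Those shifts bear on the ratios, which were not computed with offsets.

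The gamma chain stood at a higher level relative to the receptors it serves in the knockout cells. Fcer1g over summed Fcgr1, Fcgr3 and Fcgr4, in counts per kilobase, was 2.63 and 2.70 in knockout libraries, against 1.84, 1.80 and 1.97 in heterozygous ones. The groups did not overlap, and the spread within each genotype was small (SD 0.0445 and 0.0896). This ratio was added after the values of its members were known and is given without a test, and it compares a short transcript with longer ones, so the shift of Fcer1g under length and GC offsets bears on it too.

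**Figure D3:**
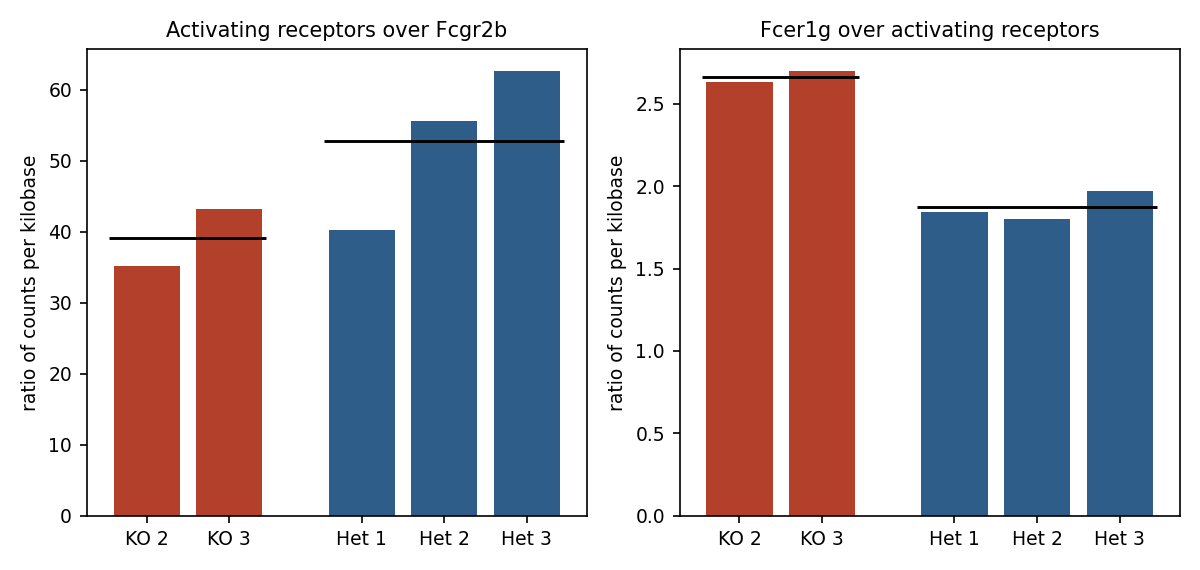
Ratios within each library, in counts per kilobase, with knockout (KO) bars in red, heterozygous (Het) bars in blue and group means as black lines. Activating receptors over Fcgr2b overlap between the genotypes (35.2 to 43.2 in knockout, 40.2 to 62.6 in heterozygous libraries), while Fcer1g over the activating receptors does not (2.63 to 2.70 in knockout, 1.80 to 1.97 in heterozygous libraries).

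Around the receptors, 95 genes of 7 lists (signalling, adapters, other Fc receptors, FcRn trafficking, the oxidase and upstream signals) were looked up, of which 91 were tested: 21 were higher, 6 lower and 64 did not pass (edgeR), a share to be read against 16.4% of all genes. The median log2 fold change was 0.16 over these 91 genes and -0.02 over all genes. The lists were chosen with earlier results of these data known, so their counts and medians are descriptions only. In the list of activating signalling, 2 of 20 were higher, 1 lower and 17 did not pass, with a median of 0.14. Fgr, a Src-family kinase of myeloid cells, was at 365 and 385 CPM in knockout libraries, against 210.1, 207 and 237 CPM in heterozygous ones, with a log2 difference of 0.78 ± 0.10 (SE, edgeR adjusted p = 0.00957). Lyn, another Src-family kinase, which acts in both activating and inhibitory signalling, was at 222 and 282 CPM in knockout libraries, against 411, 411 and 356 CPM in heterozygous ones, with a log2 difference of -0.64 ± 0.13 (edgeR adjusted p = 0.0281). These 2 kinases of the same family stood on opposite sides in this fit. Lyn lost the call with length and GC offsets (-0.38, edgeR adjusted p = 0.0961) and without heterozygous replicate 1 or 2 (edgeR adjusted p = 0.0917 and 0.0966). Its log2 fold change was -0.48 without knockout replicate 2. Fgr kept the call with the offsets (0.68) and lost it without heterozygous replicate 2 (edgeR adjusted p = 0.0504). The adapter Sh3bp2 rose by 0.39 ± 0.09, while the GTPase Rac2 (0.40 ± 0.12) did not pass. Sh3bp2 lost the call whichever library was left out (edgeR adjusted p = 0.058 to 0.13), with no filter on low counts (edgeR adjusted p = 0.0501) and with length and GC offsets (0.16, edgeR adjusted p = 0.412).

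Inhibitory signalling had 4 of 15 members higher, 0 lower and 11 not called, where 6.41% of all genes were higher. The median was 0.08. Sirpa, the receptor that reads CD47 as a sign not to engulf, was at 2601 and 2517 CPM in knockout libraries, against 1674, 1678 and 1712 CPM in heterozygous ones (log2 fold change 0.60 ± 0.07, edgeR adjusted p = 0.00893). The docking proteins Dok2 and Dok3 rose by log2 fold changes of 0.56 ± 0.09 and 0.36 ± 0.10, and Csk, which inactivates Src-family kinases, by 0.38 ± 0.09. With length and GC offsets Dok3 stood at -0.04. The phosphatases recruited by inhibitory receptors did not pass: Ptpn6 (SHP-1) had a log2 fold change of 0.30 ± 0.09 and Inpp5d (SHIP-1) one of 0.20 ± 0.08 (edgeR adjusted p = 0.0744 and 0.143).

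Adapters akin to the gamma chain, and receptors that use it or DAP12, had 4 of 12 tested members higher, 0 lower and 8 not called. Their median log2 fold change was 0.45, and 6.41% of all genes were higher. Clec4n, the fungal lectin receptor Dectin-2, which signals through the gamma chain, was at 831 and 889 CPM in knockout libraries, against 460, 502 and 495 CPM in heterozygous ones (log2 fold change 0.82 ± 0.08, edgeR adjusted p = 0.00696). Cd300lb, an activating receptor that couples to DAP12, was at 287 and 312 CPM in knockout libraries, against 135, 122 and 135 CPM in heterozygous ones (log2 fold change 1.20 ± 0.09, edgeR adjusted p = 0.00369). Both kept the call with length and GC offsets and whichever library was left out. The DAP10 gene Hcst rose by 0.68 ± 0.15 and Trem1, a DAP12-coupled receptor of neutrophils and monocytes, by 1.73 ± 0.42 from a low level (4.44 and 4.96 CPM in knockout, 0.887 to 2.17 CPM in heterozygous libraries). Trem1 lost the call with length and GC offsets (1.78, edgeR adjusted p = 0.0528) and when any library but heterozygous replicate 3 was left out (edgeR adjusted p = 0.0965 to 0.124). Neutrophil markers were higher in the same libraries, with sums of 209.99 and 33.9 CPM in knockout and 6.90 to 11.7 CPM in heterozygous libraries, and their part in this value was not tested. The DAP12 gene Tyrobp had 1637 and 1730 CPM in knockout libraries, against 1261, 1306 and 1519 CPM in heterozygous ones, and did not pass (0.31 ± 0.10, edgeR adjusted p = 0.0955). With length and GC offsets it stood at -0.27.

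Receptors for other antibody classes and Fc receptor relatives had 0 of 9 members higher and 1 lower, where 10.0% of all genes were lower. The median was -0.12. The lower member was Pigr, the epithelial transporter of IgA and IgM, which bile duct cells and hepatocytes make. It was at 2.14 and 2.97 CPM in knockout libraries, against 18.7, 25.9 and 17.9 CPM in heterozygous ones (log2 fold change -3.03 ± 0.27, edgeR adjusted p = 0.00482). The summed level of hepatocyte markers was lower in the same libraries, with 5 of 8 markers past the threshold on the lower side. The part of hepatocytes in this value was not tested. The cytosolic antibody receptor Trim21 (-0.12 ± 0.13) and the B-cell gene Fcrl1 (-0.21 ± 0.19) did not pass. Fcer1a, the IgE-binding chain of mast cells and basophils that also uses Fcer1g, had 0 counts in all 5 libraries.

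Genes of FcRn and the recycling endosome split, with 4 of 14 higher and 2 lower, where 16.4% of all genes passed. The median was 0.08. B2m, the partner chain of FcRn, was at 1603 and 2247 CPM in knockout libraries, against 2911, 2487 and 2792 CPM in heterozygous ones. All knockout values lay below the heterozygous ones, opposite to Fcgrt, but the log2 fold change of -0.50 ± 0.16 did not pass (edgeR adjusted p = 0.0775). Vps35, a core subunit of the retromer that retrieves cargo from endosomes, was at 21.8 and 21.4 CPM in knockout libraries, against 69.2, 84.7 and 66.8 CPM in heterozygous ones (-1.77 ± 0.14, edgeR adjusted p = 0.00389). Rab5a, a GTPase of early endosomes, fell by 1.05 on the log2 scale, whereas the recycling factors Ehd1 (0.52 ± 0.10) and Rab11fip5 (1.05 ± 0.24) rose. Rab11a, the GTPase of recycling endosomes, stood at 0.06 ± 0.08, and at 0.56 past the threshold with the offsets (edgeR adjusted p = 0.0279).

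Subunits of the phagocyte NADPH oxidase, which makes superoxide after Fc receptor engagement, were higher in 2 of 6 cases, lower in 1 and not called in 3, where 16.4% of all genes passed. The median was 0.04. Cybb, the catalytic subunit, was at 51.7 and 58.5 CPM in knockout libraries, against 177, 216 and 135 CPM in heterozygous ones (log2 fold change -1.68 ± 0.21, edgeR adjusted p = 0.00977). Its membrane partner Cyba rose, at 1355 and 1322 CPM in knockout libraries, against 799, 799.8 and 992 CPM in heterozygous ones (0.63 ± 0.12, edgeR adjusted p = 0.0218), and so did the cytosolic subunit Ncf4 (0.64 ± 0.09). With length and GC offsets Cybb stayed past the threshold at -1.13, while Cyba stood at 0.04 and Ncf4 at 0.27 and neither passed (edgeR adjusted p = 0.709 and 0.0854). Both higher calls were also lost without heterozygous replicate 1 (edgeR adjusted p = 0.0836 for Cyba and 0.0546 for Ncf4) or heterozygous replicate 2 (0.0838 and 0.0567), and that of Cyba without knockout replicate 2 (0.0750). Ncf1 (-0.10 ± 0.08) and Rac1 (-0.05 ± 0.07) did not pass, and Rac1 turned to 0.01 under upper-quartile scaling and to 0.12 with the offsets.

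Among 15 genes of signals known to set Fc receptor levels, 5 were higher, 1 lower and 9 did not pass, where 16.4% of all genes passed. The median was 0.39. Interferon gamma is known to induce Fcgr1 and Fcgr4. Its receptor chain Ifngr2 rose by 0.51 ± 0.11 and the myeloid factor Irf8 by 0.52 ± 0.13, while Ifngr1 stood at -0.07 ± 0.10. Tgfbr2, a receptor for transforming growth factor beta, rose by 0.42 ± 0.08, and Spi1, the gene of PU.1, did not pass at 0.47 ± 0.13 (edgeR adjusted p = 0.0604).

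**Figure D4:**
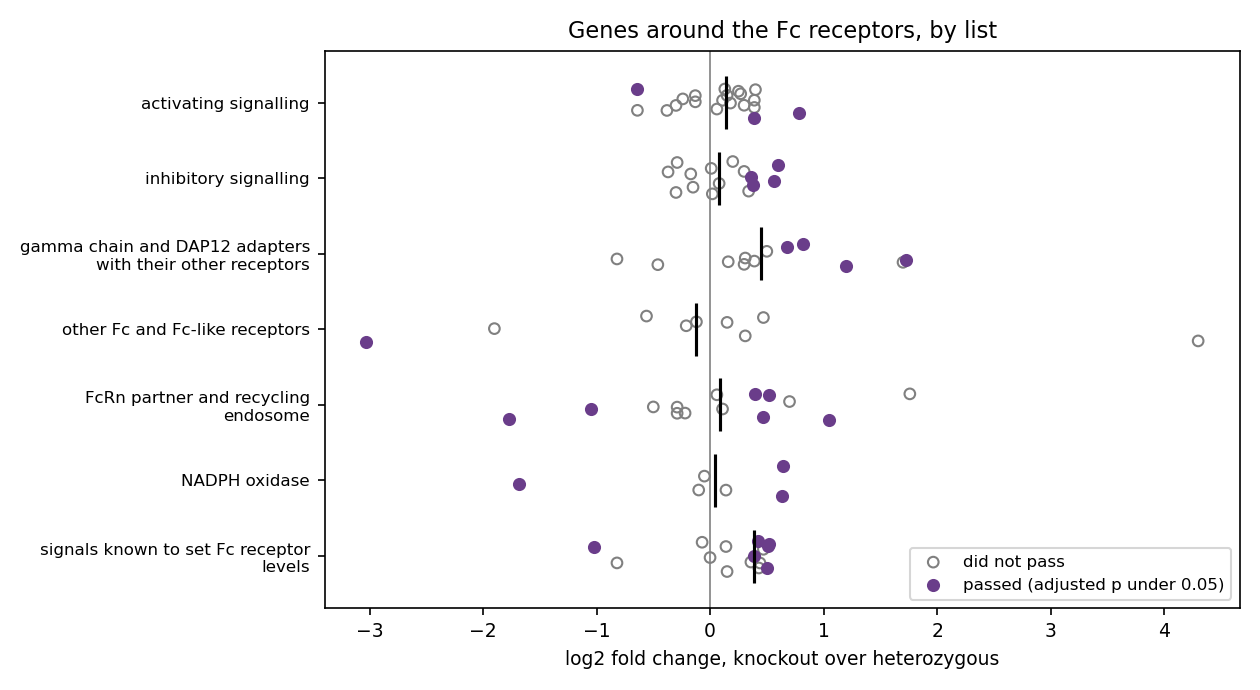
Log2 fold change, knockout over heterozygous, of each tested gene of 7 lists, with filled points for genes past the edgeR threshold, open points for the rest and a black bar at each list's median. The adapter list has its median at 0.45 with 4 of 12 genes higher, while the endosome and oxidase lists hold called genes on both sides of 0. Over all genes tested, 16.4% passed. The lists were chosen with earlier results of these data known.

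Of the 23 passing genes that the naming rule took from these lists, 5 kept the call whichever library was left out (Cd300lb, Clec4n, Pigr, Vps35 and Cybb). These 5 also kept it with length and GC offsets, as did Fgr, Sirpa, Rab11fip5, Tgfbr2 and Ifngr2. Among the 13 that lost it with the offsets, Hcst stood at 0.05, Csk at 0.09, Sh3bp2 at 0.16, Dok2 at 0.23, Ehd1 at 0.27, Irf8 at 0.29, Lyn at -0.38 and Rab5a at -0.65. The call was lost by 14 genes without knockout replicate 2, by 5 without knockout replicate 3, by 17 without heterozygous replicate 1, by 18 without heterozygous replicate 2 and by 5 without heterozygous replicate 3. Without knockout replicate 2, Rab11fip5 stood at 0.58 and Irf8 at 0.32.

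Among other cells that carry Fc receptors, the neutrophil and monocyte lists held markers that passed, while the NK cell and B cell lists held none. The counts of markers that passed are to be read against 16.4% of all genes. The 9 neutrophil markers, led by Ngp and S100a8, summed to 209.99 and 33.9 CPM in knockout replicates 2 and 3 and to 6.90 to 11.7 CPM in the heterozygous libraries, with 5 of 8 tested higher. The 8 monocyte markers, led by Treml4 and Plac8, summed to 979.5 and 1031 CPM in knockout and to 728 to 905 CPM in heterozygous libraries, with 2 higher and 1 lower. Markers of NK cells, which carry Fcgr3, summed to 26.2 and 16.9 CPM in knockout and to 2.43 to 29.4 CPM in heterozygous libraries. Klra8 was at 0 in all, and 0 of 5 tested NK cell markers passed. Markers of B and plasma cells, which carry Fcgr2b, summed to 489 and 284 CPM in knockout and to 202 to 309.5 CPM in heterozygous libraries, and 0 of 6 passed. Neutrophils and monocytes also make Fcer1g. The log2 fold change of Fcer1g was 0.46 with all libraries, 0.53 without knockout replicate 2 and 0.39 without knockout replicate 3. Both knockout libraries lay above the heterozygous ones in the neutrophil sum. The part of neutrophils and monocytes in the Fcer1g value was not tested. Of 5 mast cell and basophil markers, Fcer1a, Ms4a2, Cpa3 and Mcpt8 were at 0. Of the remaining lists, 1 of 5 T cell markers was higher, 0 of 6 dendritic cell markers passed, and 1 of 5 stellate cell and fibroblast markers was higher and 2 lower.

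**Figure D5:**
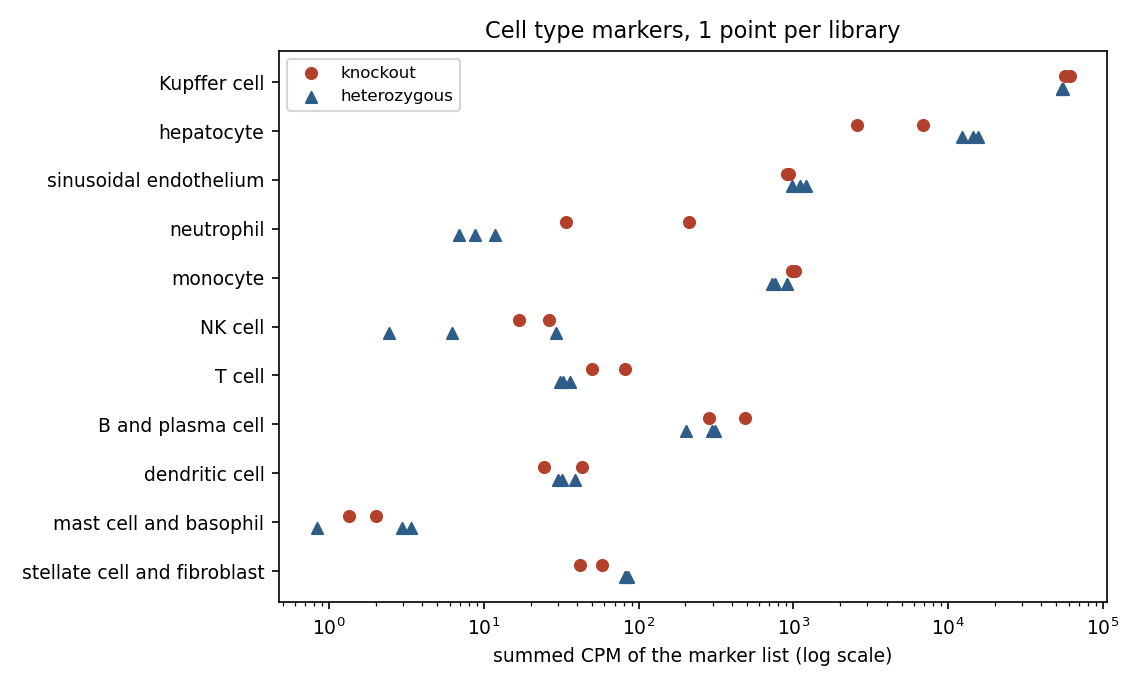
Summed CPM of each cell type's marker list on a log scale, 1 point per library, with knockout libraries as red circles and heterozygous libraries as blue triangles. Kupffer cell sums lie together near the top of the range, while the hepatocyte sum is lower and the neutrophil sum higher in both knockout libraries.

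The genes whose level followed each member most closely over the 5 libraries were listed from 3255 genes of at least 50 CPM, as a description with no test, since 5 libraries with 1 shared genotype split give very high correlations by construction. Fcgrt was closest to Gsn (gelsolin, Pearson r = 0.9998) and Dda1 (0.9987), and Fcer1g to the respiratory chain subunit Ndufb7 (0.9995) and to Cela1 (0.9995). Fcgr3 was closest to Cyb5b (0.9972) and the integrin chain Itgb1 (0.9971). Those genes differed far more between the genotypes, with log2 fold changes of -0.72 and -0.88, so likeness here is of shape and not of size. Fcgr1 was closest to Swi5 (0.9962) and Marc2 (0.9956), Fcgr2b to Kcmf1 (0.9982) and Scaf1 (0.9945), and Fcgr4 to Manf (0.9761).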

How the data were processed

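The authors deposited a table of raw counts by gene and sample. The submitters' processing notes name HTSeq 0.5.4, DESeq 1.18.0, R 3.1.2 and build mm9. Per the labels' protocols, RNA was amplified with SMART-seq V4 and libraries were made with Kapa chemistry. No source used here gives the aligner, annotation or strand setting. Gene IDs matched GENCODE M21 in 46488 of 46983 cases, 37902 with the same version, although M21 belongs to a later build than mm9. M21 was used for transcript lengths (the longest basic transcript, protein-coding ones first), GC content and shared windows. Its exon and coding coordinates gave the overlap with Gm38204 and the coding bases of Fcgr3, and no genome positions from it are printed. Promoter windows and their coordinates are RefSeq's on GRCm38.p6.

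From the deposited counts, knockout was compared with heterozygous over all 5 libraries without covariates, by the quasi-likelihood test of edgeR 4.0.16 in R 4.3.3 after filterByExpr and TMM scaling, with Benjamini-Hochberg adjustment over 16436 genes. The residual degrees of freedom were 3 and the prior ones 3.26. The entries that name no gene (40.0% and 42.8% of the total in knockout, 47.0% to 48.6% in heterozygous libraries) were left out. Marker sums are CPM on library size; other levels are TMM-normalised CPM. At these depths 3 counts equal 0.0371 to 0.0401 CPM. Replicate pairs differed by more than the sampling noise of independent reads (lowest chi-square divided by its degrees of freedom, 30.6).

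Members and gene lists were chosen with earlier results of these data known. Named were, in each list, the 4 passing genes with the smallest p and the 2 most abundant of the rest, and, for each member, the 2 genes of at least 50 CPM with the highest correlation. The fits were tested on simulated data with 200 changed genes in 3 runs. Alternatives were DESeq2 1.42.0, limma-voom (limma 3.58.1), RLE, upper-quartile and library-size scaling, 2 other filters, a replicate block, offsets for length and GC content, a robust fit and leaving out each library. A few genes that this rule names are not reported here. Amplified reads without molecular barcodes are not independent molecules.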

Additional observations from a re-analysis of the deposited data

How the results depend on the processing

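The directions of Fcer1g, Fcgrt, Fcgr1, Fcgr2b and Fcgr3 were the same in each alternative run. Both calls, Fcer1g and Fcgrt, held with DESeq2, limma-voom, RLE, upper-quartile and library-size scaling, both other filters and the robust fit. With length and GC offsets 0 members passed (Fcer1g 0.03, Fcgrt 0.23), 13 genes of the surrounding lists did against 27 without offsets, and 1618 of all genes (568 higher, 1050 lower) did against 2698. DESeq2 called 4581 genes. Leaving out 1 library gave 0 to 2 members, 5 to 25 list genes and 335 to 2540 of all genes, log2 fold changes of 0.39 to 0.55 for Fcer1g and 0.42 to 0.66 for Fcgrt, and -0.24 to 0.10 for Fcgr4, the member whose sign turned. The cause was not tested. Where a knockout library is left out, the remaining one is assumed to vary like the other group. The activating to inhibitory log2 difference was -0.60 to -0.26 without 1 library and -0.39 on raw counts, and was not computed with length and GC offsets. Replicate numbers 2 and 3 occur in both genotypes. Deviations from the group means had r of -0.0256 and -0.0618 between samples of the same number. With 2 knockout libraries their deviations mirror each other by construction, so these values cannot decide whether the numbers pair samples. A replicate block leaves 1 residual degree of freedom. With it, 0 members passed (Fcer1g 0.42, Fcgrt 0.52), as did 0 list genes and 1 of all genes. With DESeq2, 7 further named genes of the lists passed. Among other named genes, the offsets turned the sign of Dok3 (-0.04), Tyrobp (-0.27), Trem2 (-0.20), Trim21 (0.08) and Rac1 (0.12), and upper-quartile scaling that of Rac1 (0.01). Fcgr2b, at 60.0 to 93.1 CPM, is measured from 4370 to 7023 counts, and the other members from 23249 or more. Amplified reads are not independent molecules, so these numbers do not show how much counting error adds to the spread between libraries.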

Other observations

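Fcrls, an Fc receptor-like gene known from microglia, was chosen for mention after its values were seen. It had 184 and 32 counts in the knockout libraries, against 2, 0 and 14 counts in the heterozygous ones. All knockout values were above the heterozygous ones, but they differed widely from each other, and the log2 fold change of 4.30 ± 1.43 did not pass (SE, edgeR adjusted p = 0.0905).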
